A study of Mus musculus with 9 samples.

Results

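RNA sequencing counts were compared between 2 sets of libraries from HC11 cells, a mouse mammary epithelial cell line, divided by how much of each library came from the mitochondrial genome. The libraries were chosen by measured values of these counts: a library was called high-share when over 5% of its counts lay on the 37 rows of mitochondrial chromosome genes, and this held for 4 of 9 libraries: Ctrl 3, EpPT1 3, EpPT2 2 and EpPT2 3. The low-share libraries were Ctrl 1, Ctrl 2, EpPT1 1, EpPT1 2 and EpPT2 1, so each light group had libraries on both sides. The untreated Ctrl group and the EpPT1 and EpPT2 groups, both exposed to 660 nm light, had 3 libraries each. The sample labels give EpPT1 10 J/cm2 and EpPT2 20 J/cm2, while the treatment protocol names a 10 mW laser with 0.5 and 1 J/cm2, so the groups are named without a dose. All groups were grown in DMEM with fetal bovine serum and penicillin-streptomycin, with no lactogenic hormone and no genetic change named, and the strain label reads C57BL/6 throughout. The labels do not say whether the libraries of a group were separate cultures, so p-values measure how far these libraries differ, possibly for technical reasons, and they do not give plating, confluence or collection day.

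The mitochondrial genome encodes core subunits of the respiratory chain together with the ribosomal and transfer RNAs needed to translate them, and all other mitochondrial proteins come from nuclear genes. When oxygen is short, hypoxia-inducible factors are stabilised and bind short elements near genes for angiogenesis, glucose transport and glycolysis. Unfolded proteins in the endoplasmic reticulum raise chaperone genes through another set of elements, and falling sterol levels raise the genes of cholesterol synthesis. HC11 cells are known for differentiating towards milk protein expression after confluence and lactogenic hormones.

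Because the split was read from the same counts, values of high-share against low-share libraries are given as descriptions, without a p-value. The log2 difference is high-share minus low-share, fitted with light group in the model, and is followed by its standard error (SE). Levels are TMM-scaled CPM (counts relative to the library total, corrected by the trimmed mean of M-values) and are listed in the order Ctrl 3, EpPT1 3, EpPT2 2 and EpPT2 3 for the high-share side, and Ctrl 1, Ctrl 2, EpPT1 1, EpPT1 2 and EpPT2 1 for the low-share side. A gene is called apart when all 4 high-share libraries lay above, or all below, all 5 low-share libraries and the fitted difference was at least 2-fold.

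Totals were 14549787 to 15183508 counts in the high-share libraries and 15809059 to 17228929 in the low-share libraries, so depth was lower in every high-share library. Across libraries, EpPT1 3, EpPT2 2 and EpPT2 3 were close to each other, with 4.95 to 9.27 as chi-square per gene in each pair, against 64.2 to 76.2 when each was set against Ctrl 3. On the low-share side EpPT1 2 and EpPT2 1 were close to each other at 5.66, Ctrl 2 and EpPT1 1 at 15.1, and Ctrl 1 differed from each of the others by 38.3 or more. No pair was alike within sampling noise, where the value would be near 1. The 4 high-share libraries hold 3 near-alike libraries and Ctrl 3, and the likeness crosses the labels of EpPT1 and EpPT2. Regressing log2 level on the GC content of genes gave slopes, per 10 percentage points, of -0.19, 0.29, 0.23 and 0.21 in the high-share libraries and -0.38, -0.16, -0.27, 0.13 and 0.14 in the low-share libraries, so slopes of either sign occurred on both sides.

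The mitochondrial share was 7.48%, 6.93%, 6.06% and 6.94% in the high-share libraries and 2.86%, 3.62%, 3.44%, 2.74% and 3.38% in the low-share libraries. EpPT2 2 at 6.06% was the library nearest above the 5% line and Ctrl 2 at 3.62% the nearest below it. mt-Co1, the catalytic subunit of cytochrome c oxidase, made up most of it on the high-share side, with 5.62%, 4.26%, 3.91% and 4.49% of all counts against 1.61%, 2.17%, 2.10%, 1.24% and 1.57%. It took 61.4% to 75.1% of mitochondrial counts on the high-share side and 45.4% to 61.1% on the low-share side, and Ctrl 3 was the highest. Without mt-Co1 the same 4 libraries were still the highest, but the gap narrowed to 1.86% in Ctrl 3 against 1.81% in EpPT2 1. By the 13 protein-coding genes alone the gap was 5.90% against 3.57%.

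**Figure D1:**
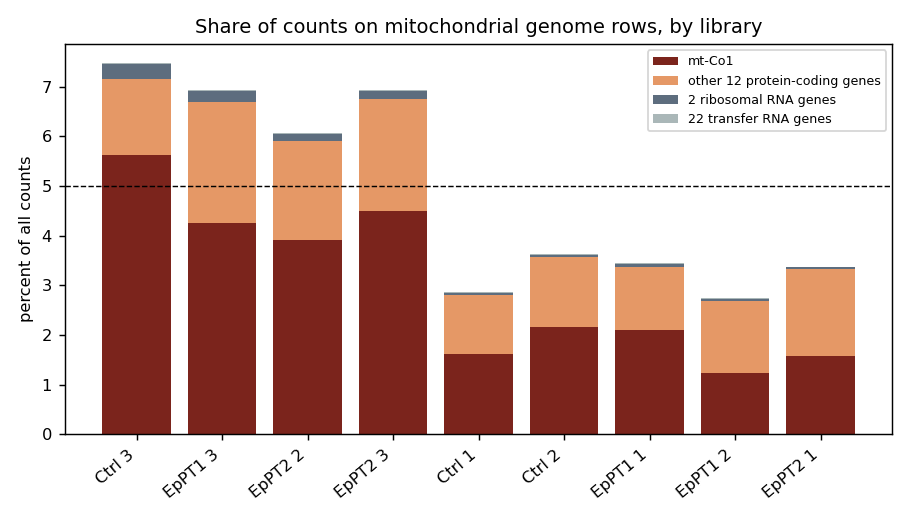
Stacked bars give the percent of all counts on mitochondrial genome rows in each library, split into mt-Co1, the other protein-coding genes, the ribosomal RNA genes and the transfer RNA genes, with a dashed line at 5%. The 4 high-share libraries on the left reach 6.06% to 7.48% and the 5 low-share libraries 2.74% to 3.62%, and mt-Co1 is the tallest segment in all but EpPT1 2 and EpPT2 1.

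The genes of the mitochondrial genome did not differ by the same factor. These genes chose the libraries, so their values describe the split. The 12S ribosomal RNA gene mt-Rnr1 had 1329, 1088, 703 and 853 CPM against 131, 146, 233, 112 and 162, a log2 difference of 2.73 (SE 0.24), and the 16S gene mt-Rnr2 2.03 (SE 0.23). Both were apart, and together they held 0.14% to 0.31% of counts against 0.037% to 0.066%. mt-Co1 differed by 1.56 (SE 0.18) on the log2 scale, while mt-Nd1, a subunit of complex I, had 5112, 8766, 6483 and 7658 CPM against 3164, 3613, 3604, 4058 and 5065 and differed by 0.76 (SE 0.15) on the log2 scale. mt-Cytb, the cytochrome b of complex III, overlapped between the sides with 2063, 4704, 3823 and 4712 CPM against 2269, 2595, 2446, 3479 and 4206 and differed by 0.16 (SE 0.18) on the log2 scale. Of 24 mitochondrial genes abundant enough to be tested, 22 were higher on the high-share side, 12 did not overlap and 8 were apart (over all 14471 tested genes, 16.5% did not overlap in that direction and 9.57% were apart). The 8 were 4 protein-coding genes (mt-Co1, mt-Atp6, mt-Co3 and mt-Nd3), both ribosomal RNA genes and 2 transfer RNA genes. Rows for nuclear copies of mitochondrial sequence on chromosome 1 held 0.019% to 0.062% of counts, so values of mt-Co2, mt-Co3 and mt-Atp6, which were low beside mt-Co1, are uncertain. All number 1 libraries were low-share and all number 3 libraries high-share, so a fit with the replicate number as a block compares the sides through the number 2 libraries alone. In that fit mt-Cytb and mt-Co2 turned sign. With the trend on GC content removed mt-Nd3 fell below the 2-fold line, at a log2 difference of 0.76, and with only the 5 libraries of positive GC slope mt-Atp6 was at 1.19.

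Across the transcriptome the sides lay apart for 2285 of 14471 tested genes (15.8%), of which 1385 were higher on the high-share side (9.57%) and 900 lower (6.22%). Lists of genes were chosen with earlier results of these data known, so their counts describe them. Where no share is printed beside a list, these shares are the comparison. Without the fold limit there were 2392 genes with no overlap higher (16.5%) and 2604 lower (18%). The median log2 difference over all tested genes was -0.05 and 47.4% of genes lay above 0. The genes apart and higher had a median level of 3.72 CPM, against 14.0 CPM for those apart and lower and 21.3 CPM for all tested genes, so low-abundance genes were many among the higher set. Among genes averaging at least 5 CPM, 607 were higher (5.93%) and 654 lower (6.39%). Median GC content was 51.9% in genes apart and higher, 46.5% in genes apart and lower and 49.4% in all tested genes. With the trend on GC content removed, 2229 genes were apart.

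**Figure D2:**
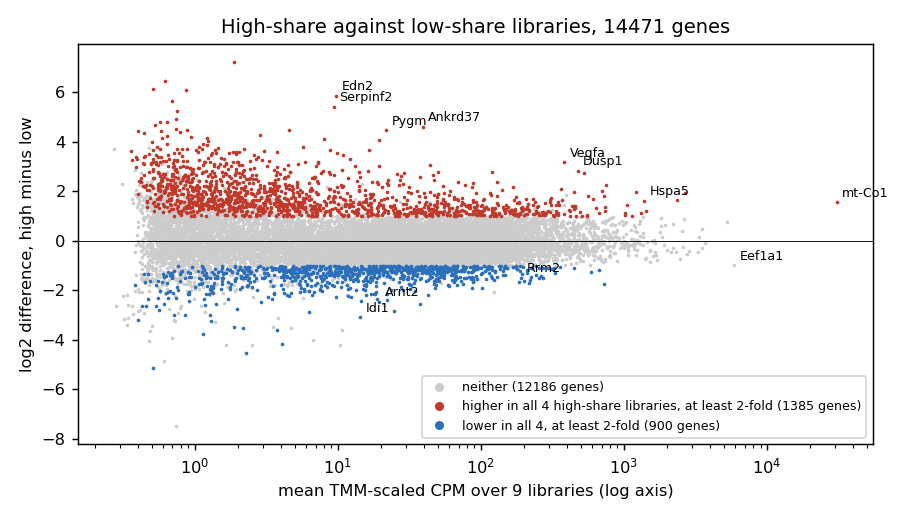
Each point is 1 of 14471 tested genes, with mean TMM-scaled CPM over 9 libraries on a log axis and the log2 difference of high-share minus low-share libraries on the vertical axis. The 1385 red genes are higher and the 900 blue genes lower in all high-share libraries by at least 2-fold, and red points crowd at low CPM.

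Several non-coding gene classes stood higher on the high-share side. Of 62 small nucleolar RNA genes tested, 25 were apart and higher (40.3%) and 0 lower. Antisense genes had 104 higher and 16 lower of 359, sense intronic genes 15 and 0 of 44, and microRNA genes 10 and 0 of 20. Protein-coding genes divided more evenly, with 957 of 12016 higher (7.96%) and 765 lower (6.37%), and processed pseudogenes leaned the other way with 39 higher and 64 lower of 788. Long non-coding genes together held 1.31% to 1.43% of counts in high-share libraries and 0.951% to 1.06% in low-share libraries, and the 83 cytosolic ribosomal protein genes 5.72% to 6.19% against 6.72% to 7.57%. Neither pair of ranges overlapped. How strand was treated in counting is not stated in these sources, so antisense and intronic rows may hold reads of the genes they overlap. Whether reads on small nucleolar RNA and microRNA rows came from longer transcripts was not tested.

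Genes induced when oxygen is short were the list with the largest median. The list was chosen with earlier results of these data known, so its place and counts describe it. Of 27 genes listed as targets of hypoxia-inducible factors, 23 were tested. Of these 20 were higher on the high-share side, 13 were apart and higher and 0 were apart and lower. The median log2 difference was 1.34. Ankrd37, an ankyrin repeat gene known as a hypoxia target (ENSMUSG00000050914, chromosome 8, 45996902 to 46005707, GRCm38), had 174, 64.2, 51.8 and 43.5 CPM against 2.36, 3.71, 7.27, 2.94 and 2.74. Every high-share value was above every low-share value, the lowest being 43.5 against a highest of 7.27, and the log2 difference was 4.61 (SE 0.40). Vegfa, the growth factor that draws in blood vessels (ENSMUSG00000023951, chromosome 17, 46016993 to 46032369), had 1125, 775, 554 and 533 CPM against 47.1, 122, 139, 71.2 and 74.8, a log2 difference of 3.17 (SE 0.31). Ctrl 3 was the highest library for both genes, and without it Ankrd37 was at a log2 difference of 3.86 and the gap between sides remained, as the other 3 high-share libraries also lay above every low-share library.

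The glucose metabolism regulator Pfkfb4 followed with 67.8, 56.2, 44.0 and 47.4 CPM against 6.82, 30.1, 14.8, 8.32 and 9.08, a log2 difference of 2.16 (SE 0.36), and the selenium-binding protein gene Selenbp1 with 40.6, 58.9, 57.0 and 50.3 CPM against 4.22, 32.2, 22.6, 6.40 and 7.62, a log2 difference of 1.98 (SE 0.57). In both, Ctrl 2 and EpPT1 1 stood above the other low-share libraries. With only the 5 libraries of positive GC slope, which leaves those libraries and Ctrl 1 and Ctrl 3 out, Selenbp1 differed by 3.02, and without Ctrl 2 by 2.63. Other members apart and higher, named after their values were seen, were Adm at a log2 difference of 3.59, the histone demethylase gene Kdm3a at 1.77, the collagen prolyl hydroxylase genes P4ha2 at 1.70 and P4ha1 at 1.46, the glucose transporter gene Slc2a1 at 1.64, Ero1l at 1.57, Bhlhe40 and Pfkfb3 at 1.34 each and Ndrg1 at 1.29. Adm rests on 34 counts over the low-share libraries and 230 over the high-share ones. It was at 4.33 in the 5 libraries of positive GC slope, 4.46 with the replicate number as a block and 4.34 without EpPT1 1. Ndrg1 fell just below the 2-fold line without EpPT2 1. Egln3, Bnip3l and Mxi1 lay at a log2 difference of 0.00, -0.02 and -0.13, and the mitophagy receptor gene Bnip3 at 0.68 had overlapping sides, with 232, 158, 178 and 177 CPM against 77.3, 246, 222, 62.6 and 67.4.

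Glycolytic enzymes as a whole differed less. Of 18 tested, 11 were higher and 3 were apart and higher (9.57% over all tested genes), with a median of 0.16. Aldoc had 30.5, 29.6, 26.8 and 27.9 CPM against 8.25, 15.5, 15.9, 8.32 and 9.02, a log2 difference of 1.41 (SE 0.24). Aldoa, the main muscle and general aldolase, was at a log2 difference of 0.90 (SE 0.21) with sides that did not overlap, from 3353 CPM at the lowest of the high-share side to 2541 at the highest of the low-share side. The lactate dehydrogenase gene Ldha was at a log2 difference of 0.14. Gapdh spread from 35.9 to 894 CPM with overlapping sides, and since this gene has many near-identical pseudogenes its counts are uncertain. Its difference of 1.87 (SE 0.89) became 2.89 without Ctrl 2. Eno2, apart at a log2 difference of 1.05 (SE 0.29), fell below the 2-fold line without Ctrl 3 at 0.66 and with the 5 libraries of positive GC slope at 0.49, and was at 0.92, 0.99 and 0.98 without Ctrl 1, Ctrl 2 or EpPT1 1.

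The factors themselves did not follow their targets. Of 7 tested factors and regulators 0 were apart and higher and 2 apart and lower. Hif1a, the oxygen-regulated subunit, whose activity is known to be set by protein stability, had 132, 84.7, 89.5 and 101 CPM against 391, 216, 219, 256 and 245 and differed by -1.35 (SE 0.19) on the log2 scale. Arnt2, a partner of such factors, had 5.26, 6.38, 6.66 and 4.73 CPM against 45.6, 10.6, 9.35, 47.7 and 39.0, a log2 difference of -2.46 (SE 0.52). Its low-share values fell in 2 ranges, with Ctrl 2 and EpPT1 1 near the high-share libraries and Ctrl 1, EpPT1 2 and EpPT2 1 at 39.0 to 47.7. Epas1 differed by 0.40 (SE 0.17) on the log2 scale.

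Promoter sequences of 2 leading hypoxia targets are shown so that their letters can be read. They are the 250 bases before the gene start from RefSeq on build GRCm38.p6, written 5′ to 3′ on the gene's strand, with ACGTG, the core of the hypoxia response element, in capitals. Ankrd37 lies at chr8:45999851-46000100 on the minus strand and Vegfa at chr17:46032378-46032627 on the minus strand. The start is that of RefSeq, and the gene models of the deposited table begin further upstream for Ankrd37, Hspa5 and Idi1.
Ankrd37: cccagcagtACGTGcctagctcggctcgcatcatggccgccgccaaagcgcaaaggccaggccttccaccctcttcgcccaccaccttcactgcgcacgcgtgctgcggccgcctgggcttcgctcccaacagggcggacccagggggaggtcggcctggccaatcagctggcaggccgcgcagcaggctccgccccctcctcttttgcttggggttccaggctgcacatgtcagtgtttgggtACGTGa
Vegfa: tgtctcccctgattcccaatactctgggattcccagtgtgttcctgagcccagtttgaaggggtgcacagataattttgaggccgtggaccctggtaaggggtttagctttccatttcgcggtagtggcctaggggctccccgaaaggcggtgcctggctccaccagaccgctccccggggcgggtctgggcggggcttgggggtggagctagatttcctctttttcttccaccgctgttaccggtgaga
The Ankrd37 stretch holds the core at positions -241 and -6 from the start, and the Vegfa stretch does not hold these letters. Searched on both strands over 300 bases, 250 before the start and 50 after it, ACGTG was found for 13 of 19 tested hypoxia targets that had a window in the table (68.4%), against 25.6% of all 10031 tested genes with a window and 19.6% of all 27025 windows. The list consists of known targets of factors that bind this core, so the share describes the list. Among the 829 genes apart and higher with a window it was 24.6%, and among the 643 apart and lower 24.3%. Targets with the core had a median log2 difference of 0.68 and the 6 without it 1.97. Bases outside these windows were not searched, and a part of the core in the difference was not tested.

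**Figure D3:**
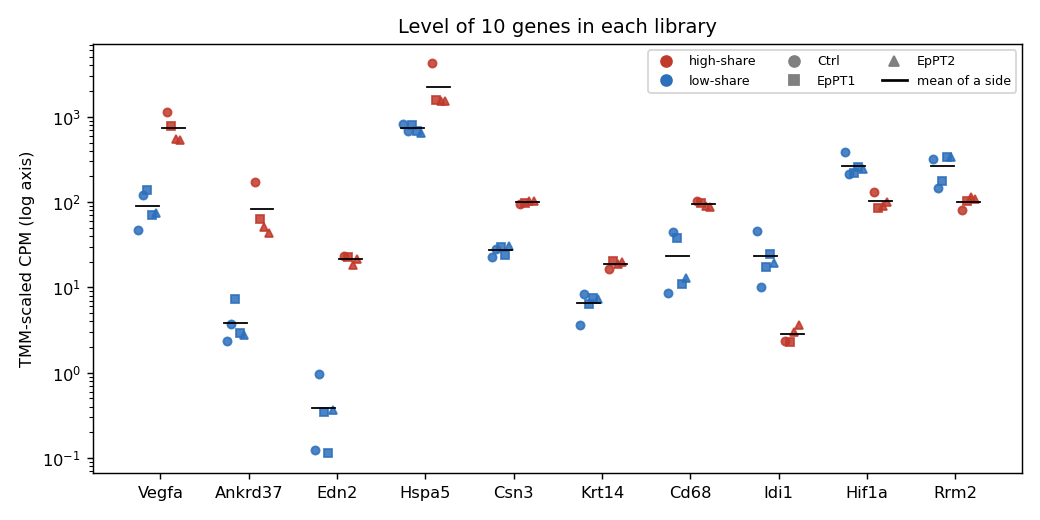
TMM-scaled CPM on a log axis is plotted for 10 genes in each of 9 libraries, with red for high-share and blue for low-share libraries, circles for Ctrl, squares for EpPT1, triangles for EpPT2 and a line at the mean of each side. Vegfa, Ankrd37, Edn2, Hspa5, Csn3, Krt14 and Cd68 lie higher and Idi1, Hif1a and Rrm2 lower in all high-share libraries.

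Over all genes, the 10 largest differences on the higher side among genes averaging 5 CPM or more ran from 3.55 to 5.87. Edn2, the vasoconstrictor peptide endothelin 2, led with 23.1, 22.7, 18.4 and 21.3 CPM against 0.124, 0.957, 0.346, 0.113 and 0.366, a log2 difference of 5.87 (SE 0.42) that rests on 32 counts over the 5 low-share libraries and 1216 over the 4 high-share ones. Serpinf2, the inhibitor of plasmin, had 31.5, 21.2, 13.2 and 15.2 CPM against 0.434, 0.239, 1.85, 0.793 and 0.122, a log2 difference of 5.42 (SE 0.47). Pygm, the glycogen phosphorylase of muscle, had 68.8, 43.8, 31.7 and 40.7 CPM against 1.49, 1.97, 3.75, 2.26 and 2.01, a log2 difference of 4.47 (SE 0.28). Gnrh1, the gonadotropin-releasing hormone gene, had 49.5, 37.8, 35.2 and 37.8 CPM against 1.86, 0.957, 6.00, 2.94 and 2.25, a log2 difference of 4.09 (SE 0.37). With 1 library left out Serpinf2 was lowest at a log2 difference of 4.78 without Ctrl 3 and highest at 6.59 without EpPT1 3. In these 4 genes the lowest high-share library stood at 13.2 CPM or above and the highest low-share library at 6.00 or below. Lce1h, of the cornified envelope, was at a log2 difference of 4.12 (SE 0.45), the zinc finger gene Zfp651 at 3.80 (SE 0.28), the adenylosuccinate synthase gene Adssl1 at 3.67 (SE 0.32), Casc1 at 3.66 (SE 0.37) and the calmodulin-dependent kinase gene Camk1g at 3.55 (SE 0.34). Ankrd37, described above, completed the 10.

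On the lower side the 10 largest differences ran from -3.08 to -2.25. After Idi1 came Cyp7b1, which hydroxylates oxysterols, with 1.65, 1.39, 0.858 and 1.76 CPM against 16.1, 4.72, 5.48, 13.2 and 11.6, a log2 difference of -2.86 (SE 0.45). The syntrophin gene Sntb1 had 8.33, 3.81, 5.01 and 5.51 CPM against 73.5, 14.6, 16.9, 51.5 and 43.0, a log2 difference of -2.85 (SE 0.49), and the sulfotransferase gene Sult1c2 9.99, 9.91, 9.90 and 12.4 CPM against 87.9, 25.8, 24.4, 82.2 and 73.3, a log2 difference of -2.55 (SE 0.42). Sntb1, Sult1c2 and Arnt2 shared a pattern in which Ctrl 2 and EpPT1 1 lay between the high-share libraries and the other 3 low-share ones. Nudt19, a peroxisomal coenzyme A hydrolase, lacked that step, with 3.75, 3.33, 5.34 and 6.07 CPM against 25.7, 15.6, 23.7, 23.7 and 23.9, a log2 difference of -2.44 (SE 0.23). Fgf1, a fibroblast growth factor, was at a log2 difference of -2.40 (SE 0.29), Jade2 at -2.35 (SE 0.30), Bckdhb, a subunit of the branched-chain keto acid dehydrogenase, at -2.26 (SE 0.29) and AW209491 at -2.25 (SE 0.19).

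Chaperones and folding enzymes of the endoplasmic reticulum were higher in the high-share libraries. Of 24 listed genes 23 were tested, 21 of them were higher, 8 apart and higher and 0 apart and lower, with a median of 0.65. Hspa5, the main chaperone of that compartment (ENSMUSG00000026864, chromosome 2, 34771970 to 34777547), had 4223, 1592, 1524 and 1523 CPM against 827, 689, 808, 689.8 and 643 and differed by 1.63 (SE 0.23) on the log2 scale. Ctrl 3 stood at 4223 CPM while the other high-share libraries lay within 1523 to 1592, all above the low-share maximum of 827. Dnajb9, a co-chaperone, also had its highest value in Ctrl 3, with 239, 67.5, 61.2 and 69.7 CPM against 44.6, 29.9, 43.2, 32.7 and 25.3, a log2 difference of 1.69 (SE 0.29), and differed by 1.09 without Ctrl 3. Syvn1, the ubiquitin ligase of the degradation pathway, had the reverse, with Ctrl 3 the lowest of the high-share side in 84.5, 149, 142 and 143 CPM against 29.7, 45.9, 37.0, 55.9 and 50.2, and differed by 1.45 (SE 0.18) on the log2 scale. Xbp1, the transcription factor activated by splicing, had 261, 194, 194 and 203 CPM against 76.2, 116, 109, 80.9 and 80.4, a log2 difference of 1.26 (SE 0.17). The kinase gene Eif2ak3 at a log2 difference of 1.13 and the foldases Pdia4 at 1.23, P4hb at 1.19 and Calr at 1.03 were also apart, and are named after their values were seen. Without Ctrl 3, Calr was at a log2 difference of 0.82 and Eif2ak3 at 0.95, and Calr was also below the 2-fold line without Ctrl 1 at 0.99 and without Ctrl 2 at 0.97.

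The Hspa5 promoter is printed because it carries the element of this pathway, CCAAT and CCACG with 9 bases between them, in capitals beside 1 ACGTG. It lies at chr2:34771840-34772089 on the plus strand.
Hspa5: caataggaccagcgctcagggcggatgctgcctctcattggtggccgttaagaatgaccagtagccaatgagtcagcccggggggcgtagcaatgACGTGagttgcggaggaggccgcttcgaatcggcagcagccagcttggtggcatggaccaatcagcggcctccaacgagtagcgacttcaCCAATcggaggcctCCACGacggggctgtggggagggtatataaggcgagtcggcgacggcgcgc
The element starts at position -65 from the gene start. It was found on either strand in 8 of 20 tested list members with a window (40%), against 0.189% of all tested genes with a window and 0.126% of all windows, 34 in number. The sites below, read along the strand of the element, show how the spacer of 9 bases varies between members.
Hspa5: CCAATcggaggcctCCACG
Syvn1: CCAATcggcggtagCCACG
Calr: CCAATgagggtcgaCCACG
Hsp90b1: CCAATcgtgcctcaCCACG
Hsp90b1: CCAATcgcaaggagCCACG
Pdia6: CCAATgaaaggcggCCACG
Creld2: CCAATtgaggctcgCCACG
Dnajc3: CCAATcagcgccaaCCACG
Canx: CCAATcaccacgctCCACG
The sites are listed from the largest difference to the smallest, from 1.63 for Hspa5 over 1.45 for Syvn1, 1.03 for Calr, 0.76 for Hsp90b1, 0.69 for Pdia6, 0.65 for Creld2 and 0.43 for Dnajc3 to 0.05 for Canx. Hsp90b1 has the element at 2 places. Members with the element had a median log2 difference of 0.73 with 3 of 8 apart, and members without it 0.68 with 5 of 12 apart. These are chosen members of 1 pathway, and the letters describe them.

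Genes of the ATF4 branch of the stress response split. Of 19 tested, 10 were higher and 9 lower, 2 were apart and higher and 5 apart and lower (9.57% and 6.22% over all tested genes). Higher were Ppp1r15a, which restores translation after stress, with 215, 209, 217 and 165 CPM against 31.8, 103, 94.3, 78.3 and 62.0, a log2 difference of 1.53 (SE 0.29), and the amino acid transporter subunit Slc3a2 with 1.35 (SE 0.14). Lower were its partner subunit Slc7a5 with 15.4, 24.1, 34.3 and 33.9 CPM against 68.7, 39.4, 52.0, 81.3 and 85.8, a log2 difference of -1.53 (SE 0.22), and Mthfd2, of mitochondrial folate metabolism, with 17.0, 14.0, 14.8 and 15.9 CPM against 43.3, 27.9, 35.5, 45.4 and 44.0, a log2 difference of -1.37 (SE 0.19). The serine synthesis genes Phgdh and Psat1 and the serine hydroxymethyltransferase gene Shmt2 were the remaining members apart, at a log2 difference of -1.12, -1.09 and -1.13. Each fell below the 2-fold line without 1 library, Phgdh at a log2 difference of -0.96 without EpPT1 2, Psat1 at -0.96 without Ctrl 1 and Shmt2 at -0.95 without Ctrl 3. The list median was 0.43 and turned to -0.05 without Ctrl 3, -0.35 with the replicate number as a block and -0.19 in the 5 libraries of positive GC slope.

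Genes of cholesterol synthesis were lower in the high-share libraries. Of 24 tested, 20 were lower, 5 apart and lower and 0 apart and higher, with a median of -0.75. Idi1, which isomerises isopentenyl diphosphate (ENSMUSG00000058258, chromosome 13, 8885501 to 8892451), had 2.33, 2.29, 3.03 and 3.60 CPM against 46.0, 9.99, 17.4, 24.6 and 19.6, a log2 difference of -3.08 (SE 0.45). All high-share values were at or below 3.60 CPM and all low-share values at or above 9.99. Hmgcs1, an early enzyme of the mevalonate pathway, had 81.4, 30.7, 42.0 and 40.5 CPM against 183, 84.8, 95.7, 109 and 111, a log2 difference of -1.27 (SE 0.25). Ctrl 3, at 81.4 CPM, came close to the lowest low-share library, Ctrl 2 at 84.8. Mvk was at a log2 difference of -1.24 (SE 0.31), Lss at -1.01 (SE 0.25) and Fdps at -1.44, while Srebf2, a regulator of the set, was at 0.08. The Fdps value rests on 140 counts over the low-share libraries and 37 over the high-share ones. In Mvk and Lss the sides were separated by little, 4.64 against 4.78 CPM and 18.8 against 19.4, and Lss was below the 2-fold line without Ctrl 1, EpPT1 2, EpPT2 1 or EpPT2 2, at a log2 difference of -0.86, -0.89, -0.94 and -0.99.

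The Idi1 stretch of 250 bases at chr13:8885356-8885605 on the plus strand is printed as that of the gene furthest below 0 by the rule.
Idi1: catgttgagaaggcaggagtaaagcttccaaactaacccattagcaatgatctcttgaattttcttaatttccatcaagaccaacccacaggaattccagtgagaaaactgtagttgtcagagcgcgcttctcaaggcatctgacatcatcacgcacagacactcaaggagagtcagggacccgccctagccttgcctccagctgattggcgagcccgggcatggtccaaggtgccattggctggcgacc
It holds neither ACGTG nor TCACNCCAC, the sterol response element searched here on both strands. That element was found in 1 of 16 tested list members with a window (6.25%), against 1.08% of all tested genes with a window and 1.22% of all windows.

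Fatty acid and glycerolipid genes went both ways. Of 16 tested, 12 were lower, with 4 apart and lower and 2 apart and higher, and a median of -0.46. The shares over all tested genes were 6.22% apart and lower and 9.57% apart and higher. Gpam, the first acyltransferase of glycerolipid synthesis, was at -2.02 (SE 0.34), the elongase gene Elovl6 had 11.1, 12.1, 10.6 and 16.2 CPM against 69.0, 29.1, 42.9, 51.5 and 45.8, a log2 difference of -1.96 (SE 0.27), and the desaturase gene Fads2 16.5, 29.7, 29.7 and 33.3 CPM against 75.5, 47.4, 51.3, 72.4 and 63.3, a log2 difference of -1.30 (SE 0.23). Dgat2, which completes triglyceride synthesis, was higher with 7.28, 13.1, 12.7 and 11.0 CPM against 2.85, 3.89, 3.81, 5.21 and 5.67, a log2 difference of 1.24 (SE 0.21).

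**Figure D4:**
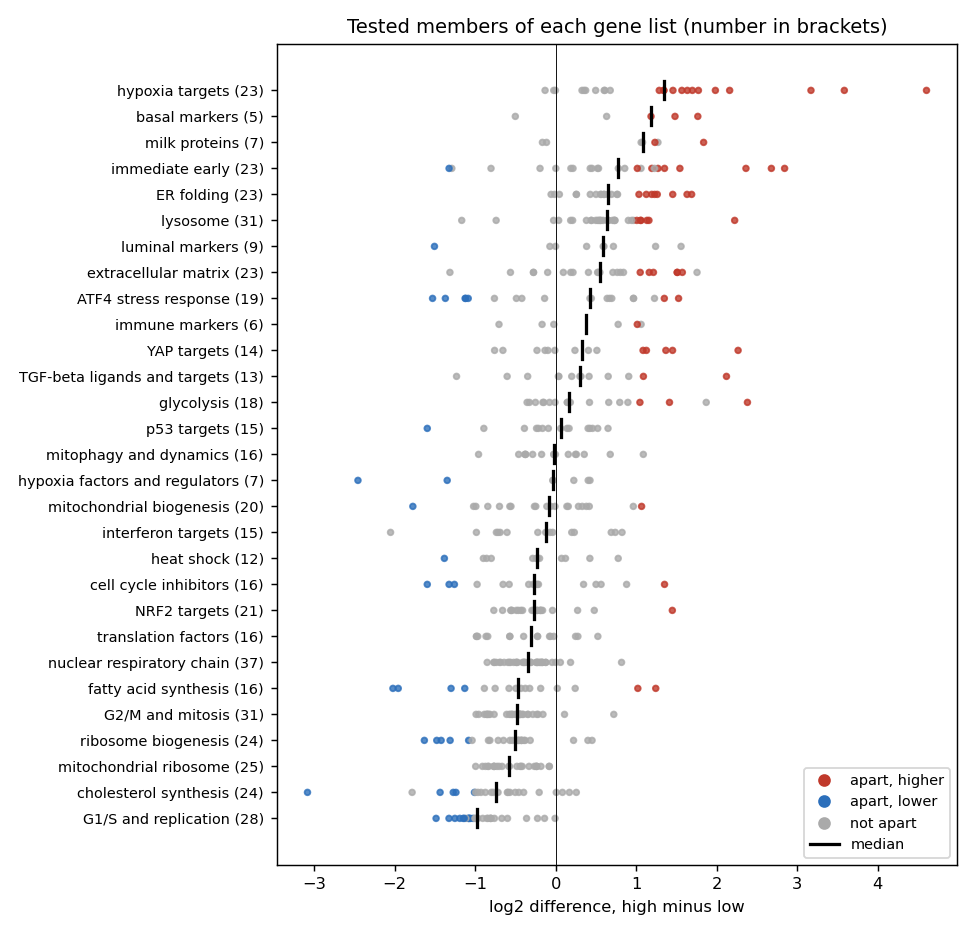
Each point is a tested member of a gene list, placed by its log2 difference of high-share minus low-share libraries, in red where apart and higher, blue where apart and lower and grey otherwise, with a black line at the list median. Hypoxia targets head the order with a median of 1.34 and genes of G1/S and replication close it at -0.98.

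Mammary genes were expressed in part. Of 14 milk protein genes 7 were tested, 5 of these were higher and 2 apart and higher (9.57% over all tested genes), with a median of 1.08. Csn3, kappa-casein, had 95.3, 98.4, 102 and 104 CPM against 23.0, 28.2, 30.1, 23.8 and 30.6, a log2 difference of 1.84 (SE 0.14), with the 4 high-share libraries close together and no library between the sides. Mfge8, a milk fat globule protein, had 321, 704, 721 and 801 CPM against 148, 273, 228, 253 and 271, a log2 difference of 1.23 (SE 0.22), where Ctrl 3 lay near the low-share libraries. With the replicate number as a block Mfge8 was at a log2 difference of 0.78. Csn2, Wap, Lalba, Csn1s2a and Csn1s2b had 0 counts throughout. In the shallowest library a count of 0 allows at most 0.206 CPM before scaling, a limit for counting error only. Xdh, the xanthine dehydrogenase gene, was at a log2 difference of -0.11 (SE 0.16).

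The labelled cell type was checked against its markers. Luminal keratins were present throughout, with Krt8 at 568 to 868 unscaled CPM and Krt18 at 747 to 1016, and their log2 differences were -0.07 and 0.00. The adhesion gene Cdh1 was at 0.236 to 0.756 unscaled CPM in all libraries. Esrp1, Gata3, Prlr, Elf5 and the claudin gene Cldn7 were at or near 0. Elf3, another marker of the list, had 102 to 121 against 44.3 to 134 unscaled CPM, ranges that overlap. Few counts on a row need not mean absent RNA, as the translation factor gene Eef1d had 18 counts over 9 libraries beside 39851 for Eef1g. Whether mapping or counting lost reads of single genes was not tested. In these counts epithelial and luminal identity therefore rests on keratins, Epcam, Cldn3, Cldn4, Elf3 and Ehf. Of 9 luminal markers tested 6 were higher, 0 apart and higher and 1 apart and lower, with a median of 0.59. The shares over all tested genes were 9.57% apart and higher and 6.22% apart and lower. The tight junction genes Cldn4 and Cldn3 had the largest positive differences of the list. Cldn4 had 30.8, 87.7, 81.3 and 82.0 CPM against 7.63, 33.7, 36.1, 14.8 and 17.3, a log2 difference of 1.56 (SE 0.46), and Cldn3 had 214, 617, 576 and 562 CPM against 79.4, 176, 148, 221 and 250.4, a log2 difference of 1.24 (SE 0.26). In both, Ctrl 3 lay within the range of the low-share libraries and the other 3 high-share libraries lay above it. Cldn3 was at a log2 difference of 0.60 with the replicate number as a block, 0.82 with the GC trend removed and 0.96 without EpPT1 3, and Cldn4 at 2.41 in the 5 libraries of positive GC slope. The keratin genes Krt19 and Krt7 were at a log2 difference of 0.72 and 0.38 and the adhesion gene Epcam at 0.60. Ehf, an epithelial transcription factor, was the member apart and lower, with 39.7, 18.6, 28.2 and 21.0 CPM against 97.1, 84.1, 65.2, 71.3 and 69.0, a log2 difference of -1.51 (SE 0.17). Summed over all 15 luminal markers the level was 3327 to 3636 unscaled CPM on the high-share side and 2450 to 3583 on the low-share side, ranges that overlap.

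Of 14 basal markers 5 were tested, of which 4 were higher and 1 lower, 3 apart and higher and 0 apart and lower, with a median of 1.18. Krt14, a keratin of basal cells, had 16.7, 20.4, 18.6 and 20.0 CPM against 3.60, 8.31, 6.41, 7.42 and 7.31, a log2 difference of 1.48 (SE 0.24), and the laminin receptor subunit Itga6 765, 594, 696 and 705 CPM against 262, 561, 491, 189 and 189, a log2 difference of 1.18 (SE 0.34). Itga6 in Ctrl 2 and EpPT1 1 came near the high-share libraries. Krt14 was at a log2 difference of 0.89 with the replicate number as a block, and Itga6 at 1.82 in the 5 libraries of positive GC slope and 0.84 without EpPT2 1. Krt5 was at a log2 difference of 1.77 but had means of 2.82 and 0.826 CPM. Trp63 and Acta2, which define basal and myoepithelial cells, had at most 0.589 and 0.38 unscaled CPM. Mylk, a myosin kinase gene of contractile cells, was the lower member, at a log2 difference of -0.50 (SE 0.44) with means of 1.42 and 1.98 CPM, and at 0.88 with the replicate number as a block. Trp63 had 11 counts over the high-share libraries and 25 over the low-share ones, and Acta2 1 and 10. The summed level of the 14 basal markers was 847 to 956 against 341 to 775 unscaled CPM, nearly all of it Itga6 and Itgb4. Itga6 alone had 584 to 695 against 196 to 583 unscaled CPM, and Itgb4 136 to 244.5 against 96.1 to 180.

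Summed levels of the markers of immune, endothelial, fat and fibroblast cells overlapped between the sides. The macrophage genes Adgre1 and Tyrobp had 0 counts in all 9 libraries and the pan-leukocyte gene Ptprc at most 0.75 unscaled CPM, and the summed level of 14 immune markers was 21.9 to 26.9 on the high-share side and 18.7 to 23.8 on the low-share side. Itgam was apart with 10.7, 8.39, 10.7 and 8.05 CPM against 4.03, 4.96, 5.71, 3.00 and 5.24, a log2 difference of 1.01 (SE 0.24), and was at 0.94, 0.89, 0.91 and 0.97 without Ctrl 1, Ctrl 3, EpPT1 2 or EpPT2 2. Cd14 was at a log2 difference of -0.17 (SE 0.21). The 8 endothelial markers summed to 1.71 to 2.57 against 0.759 to 3.91 unscaled CPM, with Emcn at 0 throughout. The fat cell markers summed to 246 to 287 against 247 to 420, nearly all of it Lpl, with Adipoq and Plin1 near 0. Of 2 fat cell markers tested, Pparg, a transcription factor of fat cells named after its values were seen, was apart and lower, with 2.40, 2.08, 1.65 and 2.68 CPM against 7.94, 4.48, 8.48, 6.91 and 6.64, a log2 difference of -1.62 (SE 0.28), and Lpl was at -0.13 (SE 0.19). Of the fibroblast markers Dcn had 3288, 1812, 1998 and 2110.5 CPM against 1293, 2143, 2093, 733 and 756, with sides that overlap, while Thy1 had 0 counts and Lum and Col1a2 were at or near 0. In these bulk libraries fewer cells of a type and less RNA per cell cannot be told apart, and the part of these genes in the other results was not tested.

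Lysosomal genes were higher as a group. Of 31 tested, 28 were higher, 20 of them without overlap, 6 apart and higher and 0 apart and lower, with a median of 0.64. Among all tested genes 16.5% were higher without overlap and 9.57% apart and higher. Cd68, a lysosomal membrane glycoprotein often used for macrophages (ENSMUSG00000018774, chromosome 11, 69664213 to 69666153), had 102, 98.1, 89.5 and 87.4 CPM against 8.50, 45.1, 38.0, 11.0 and 12.9, a log2 difference of 2.22 (SE 0.47). The high-share libraries were within 87.4 to 102 CPM, while Ctrl 2 and EpPT1 1 stood above the other low-share libraries. Tpp1, a lysosomal peptidase, had 420.1, 465, 417 and 451 CPM against 172, 250.4, 222, 181 and 179, a log2 difference of 1.16 (SE 0.15), and the cholesterol transporter gene Npc1 71.9, 69.2, 66.6 and 68.1 CPM against 27.2, 37.1, 39.5, 28.8 and 28.9, a log2 difference of 1.13 (SE 0.16). Ctsh, a cathepsin, was at a log2 difference of -1.17 (SE 0.33) with overlapping sides.

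Genes of DNA replication were lower throughout. All 28 tested members of the G1/S list were below 0, 23 without overlap and 11 apart and lower, with a median of -0.98. The shares over all tested genes were 18% lower without overlap and 6.22% apart and lower. Rrm2, a subunit of ribonucleotide reductase, had 79.8, 104, 114 and 109 CPM against 316, 148, 179, 336 and 341, a log2 difference of -1.49 (SE 0.25). The helicase subunit Mcm5 had 41.3, 63.4, 64.1 and 62.8 CPM against 123, 102, 106, 167 and 171, a log2 difference of -1.33 (SE 0.17), with Ctrl 3 the lowest, and Mcm4 56.9, 52.4, 48.4 and 46.7 CPM against 146, 104, 119.5, 127 and 109.5, a log2 difference of -1.19 (SE 0.14). Tyms, which makes thymidylate, was at a log2 difference of -1.25 (SE 0.15). Pcna, Tk1 and E2f1 were at a log2 difference of -0.23, -0.14 and -0.01.

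Of 31 mitotic genes 29 were lower, 20 without overlap and 0 apart, with a median of -0.48. Among all tested genes 18% were lower without overlap and 6.22% apart and lower. Ccna2, cyclin A2, had 62.4, 64.0, 71.1 and 68.7 CPM against 178, 115, 135, 123 and 116, a log2 difference of -0.99 (SE 0.17), just short of the 2-fold line. Mki67, a widely used marker of cycling cells, went the other way at a log2 difference of 0.72, from a mean of 697 ± 118 (SD, n = 5) to 1192 ± 198 CPM (SD, n = 4). Of 16 tested cell cycle inhibitors 11 were lower, with 3 apart and lower and 1 apart and higher (6.22% and 9.57% over all tested genes). Ccng1, a p53 target, had 147, 77.6, 90.0 and 90.5 CPM against 513, 249.8, 252, 308 and 269.6, a log2 difference of -1.60 (SE 0.21), while Cdkn1a, which encodes p21, was at -0.21. The p53 target list had a median of 0.06 with Ccng1 as its member apart. Btg2 was at -1.32 (SE 0.37), at -2.25 with the replicate number as a block and at -0.94 without EpPT1 2, and the shear-responsive factor gene Klf2 was higher with 168, 380.0, 349 and 309 CPM against 51.8, 121, 104, 113 and 138, a log2 difference of 1.35 (SE 0.24).

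Immediate early genes, induced rapidly by growth factors or handling of a culture, had 19 of 23 tested members higher, 8 apart and higher and 1 apart and lower, with a median of 0.78. Dusp1, a phosphatase of MAP kinases, had 925, 857, 906 and 904 CPM against 43.6, 103, 160.4, 213 and 152, a log2 difference of 2.84 (SE 0.30). Fos had 161, 298, 291 and 207 CPM against 47.8, 20.0, 7.39, 74.9 and 63.4, a log2 difference of 2.36 (SE 0.51), Fosb 2.68 (SE 0.71) and Egr1 1.54 (SE 0.24). In Fos and Fosb the low-share libraries Ctrl 2 and EpPT1 1 were the lowest, the reverse of their place in hypoxia targets. The list median was 0.34 without Ctrl 3 and 0.04 in the 5 libraries of positive GC slope, and 0.37 with the replicate number as a block.

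YAP targets, which respond to cell density and shape, had 5 of 14 apart and higher and 0 apart and lower, with a median of 0.32. Cyr61 had 1505, 999, 1537 and 1389 CPM against 311, 118, 149, 417 and 338, a log2 difference of 2.27 (SE 0.35), Ctgf 1961, 1389.8, 1555 and 1541 CPM against 673, 259, 657, 663 and 692, a log2 difference of 1.45 (SE 0.27), and the phosphatase gene Ptpn14 was at 1.37 (SE 0.24). The YAP partner gene Tead1 was at a log2 difference of -0.76. Extracellular matrix genes had 18 of 23 higher and 6 apart and higher, with a median of 0.55, led among genes apart by the lysyl oxidase family gene Loxl2 with 283, 271, 289 and 296 CPM against 60.6, 181, 173, 49.3 and 61.8, a log2 difference of 1.57 (SE 0.41), the matrix glycoprotein gene Tnc at 1.51 (SE 0.43) and basement membrane collagen Col4a2 at 1.21 (SE 0.15). Loxl2 was at a log2 difference of 2.37 in the 5 libraries of positive GC slope. Of 13 TGF-beta ligands and targets 2 were apart and higher, against 9.57% of all tested genes. They were Smad7 at a log2 difference of 1.09 (SE 0.18) and Tgfb2 at 2.12. Smad7 was at a log2 difference of 0.93 without Ctrl 3. Bgn and Tgfbi varied widely within the low-share side, with 26.3, 23.1, 26.0 and 30.6 CPM against 104, 5.68, 4.44, 97.2 and 79.5 for Tgfbi, and their differences of -1.31 (SE 0.79) and -1.23 (SE 0.81) were -0.75 and -0.56 without Ctrl 1 and -0.65 and -0.52 without EpPT1 2.

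Nuclear genes for mitochondrial proteins did not follow the mitochondrial genome. Of 37 tested nuclear subunits of the respiratory chain 33 were lower, 15 without overlap, and 0 were apart, with a median of -0.34. Among all tested genes 18% were lower without overlap. Atp5b, the catalytic subunit of ATP synthase, had 1421, 1088, 1167 and 1154 CPM against 2171, 2038, 2231, 2008 and 2003, a log2 difference of -0.77 (SE 0.13). All 25 genes of the mitochondrial ribosome were below 0, again with 0 apart, and had a median of -0.57, led by Mrpl16 at a log2 difference of -0.99 (SE 0.14). Tfam, which packs and transcribes mitochondrial DNA, had 35.4, 31.5, 31.6 and 35.4 CPM against 83.7, 65.2, 69.3, 62.4 and 60.1, a log2 difference of -0.99 (SE 0.14), and the elongation factor gene Tefm 2.63, 7.14, 3.83 and 5.72 CPM against 21.8, 17.6, 14.6, 16.2 and 14.3, a log2 difference of -1.78 (SE 0.30). Pprc1, a coactivator of such genes, was higher with 352, 439.6, 389 and 422 CPM against 166, 122, 208, 209.5 and 227, a log2 difference of 1.07 (SE 0.14). Pprc1 fell below the 2-fold line without Ctrl 2 or Ctrl 3, at a log2 difference of 0.98 and 0.95. The list of mitochondrial biogenesis had 1 member apart in each direction of 20 and that of mitophagy and dynamics 0 of 16. The share apart in either direction was 15.8% over all tested genes.

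Antioxidant genes controlled by NRF2 had 18 of 21 lower, 1 apart and higher (9.57% over all tested genes) and a median of -0.28. Hmox1, heme oxygenase, was the member apart, with 431, 638, 518 and 539.8 CPM against 105, 72.2, 253, 311 and 292, a log2 difference of 1.45 (SE 0.23), and stood at 0.96, below the 2-fold line, in the 5 libraries of positive GC slope. Of 12 heat shock genes 8 were lower and 1 was apart and lower, against 6.22% of all tested genes. That member, Hsph1, had 101, 64.3, 64.2 and 70.8 CPM against 267, 164, 225, 202 and 171, a log2 difference of -1.38 (SE 0.18). Hspd1 and Hspe1, the chaperonins of the mitochondrial matrix, were at a log2 difference of -0.80 (SE 0.15) and -0.90 (SE 0.15). Genes of ribosome biogenesis had 21 of 24 lower and 5 apart and lower, with a median of -0.50, and Polr1b, a subunit of RNA polymerase I, had 18.2, 27.7, 24.7 and 29.1 CPM against 91.0, 41.6, 57.2, 85.9 and 86.3, a log2 difference of -1.63 (SE 0.25). Translation factors had 13 of 16 lower with 0 apart, and Eef1a1 had 4214, 3413, 3609 and 4325 CPM against 7796, 5973, 6411, 8675 and 8297, a log2 difference of -0.97 (SE 0.16). Of 15 interferon targets 0 were apart.

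The difference between sides can also be read within each light group. For genes apart its sign there is fixed by how they were chosen, so only its size is described. Edn2 was higher by 5.48, 6.08 and 5.34 on the log2 scale within Ctrl, EpPT1 and EpPT2, Ankrd37 by 5.81, 3.75 and 4.05 and Vegfa by 3.89, 2.96 and 2.86. For Idi1 the values were -3.14, -3.11 and -2.52. At least 2-fold differences in 1 direction in all 3 light groups were found for 983 genes higher and 466 lower, 10% of those tested. The differences correlated across 14447 nuclear genes with Pearson's r of 0.729 for Ctrl and EpPT1, 0.748 for Ctrl and EpPT2 and 0.772 for EpPT1 and EpPT2. Genes are not independent replicates and the libraries were divided by a shared feature, so these are descriptions.

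**Figure D5:**
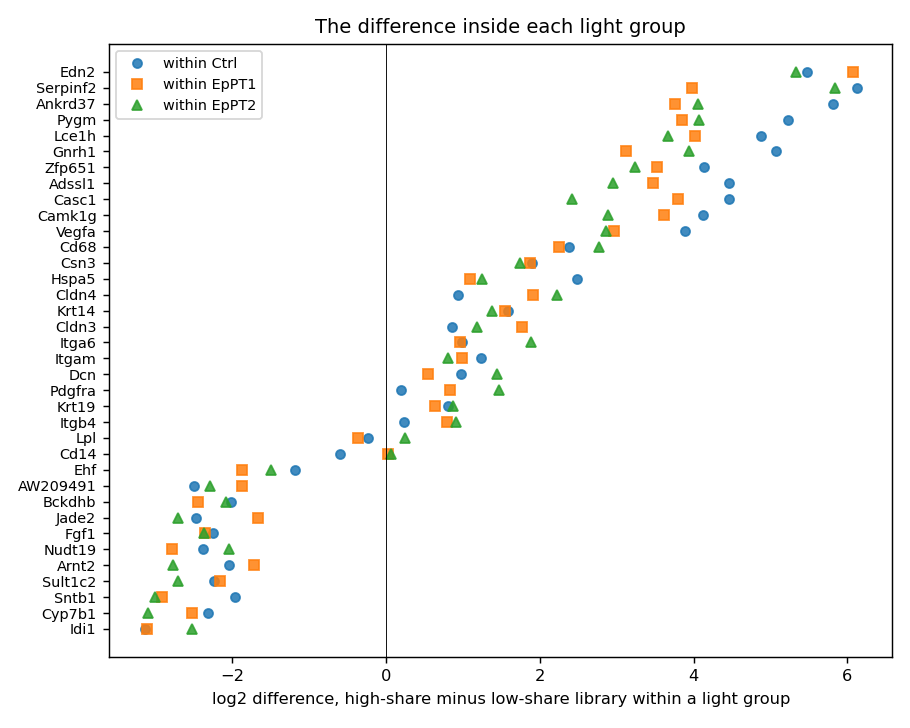
The log2 difference of high-share minus low-share libraries is plotted inside each light group for the genes with the largest differences and for marker genes, with circles for Ctrl, squares for EpPT1 and triangles for EpPT2. Among the largest genes the sign is fixed by their choice, and what can be read is how far the 3 points of a gene lie from each other, as for Ankrd37 at 5.81, 3.75 and 4.05.

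Whether the size of the difference depended on the light group was tested with the interaction of side and light group, a contrast that did not choose the libraries. By edgeR's quasi-likelihood test 0 of 14471 genes (0%) passed an adjusted p of 0.05, 184 had an unadjusted p under 0.05 and the lowest adjusted p was 1 after rounding. This design has 3 residual degrees of freedom, and in each light group 1 side is a single library, Ctrl 3, EpPT1 3 or EpPT2 1, which is assumed to vary like the others. DESeq2 called 4 genes: Atf3, a stress transcription factor, with an adjusted p of 7.8e-11, the orphan receptor genes Nr4a1 and Nr4a2 with 0.0047 and 0.016, and mt-Atp6 with 0.050. For Atf3 the level was 945 CPM in Ctrl 3 and 150.8 to 270.0 in the other high-share libraries, against 115 to 355 in the low-share ones, so Ctrl 3 stood far above the rest for this gene.

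The study compared untreated cells with each light exposure, and those comparisons share the Ctrl libraries. With side in the model, the spread between libraries fell from a biological coefficient of variation of 39.3% to 23.5%. Side was read from these same counts, so this fall was partly set by that choice. The p-values for light with side in the model depend on it too. For EpPT1 against Ctrl 0 genes (0%) passed an adjusted p of 0.05 by edgeR, with 1834 at an unadjusted p under 0.05 and a lowest adjusted p of 0.37, and DESeq2 called 49. For EpPT2 against Ctrl 0 genes passed, with 3171 at an unadjusted p under 0.05 and a lowest adjusted p of 0.14, and DESeq2 called 769. Without side in the model the unadjusted counts were 568 and 1763, with 0 genes called by edgeR in either. Leaving out EpPT1 1, the library close to Ctrl 2, gave 2528 calls (1392 higher and 1136 lower) for EpPT1 against Ctrl and 2698 (1452 and 1246) for EpPT2 against Ctrl. EpPT1 1, at -0.27, was the only exposed library with a negative GC slope, while all Ctrl libraries had one. Without it, exposure and the sign of the GC slope coincide and cannot be told apart. None of Vegfa, Ankrd37, Hspa5, Csn3, Krt14, Cd68 and Idi1 passed in either comparison with all libraries, and for Vegfa the log2 fold change was 0.01 in EpPT1 and -0.59 in EpPT2, with adjusted p values of 0.994 and 0.338 by edgeR.

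Libraries of a side were graded rather than alike. Among the 1385 genes apart and higher, the low-share library nearest to the high-share side was EpPT1 1 for 27.9% and Ctrl 2 for 26.6%, and Ctrl 1 for 9.46%. Among the 900 apart and lower it was Ctrl 2 for 36.9%, EpPT1 1 for 25.9% and Ctrl 1 for 4.44%. On the high-share side Ctrl 3 was nearest to the low-share side for 35.4% of the higher and 36.9% of the lower genes, although it had the largest mitochondrial share. The first principal component, with 57.2% of the variance, placed Ctrl 3 at 29.9 and the other high-share libraries at 40.5 to 47.2, and the low-share libraries at -51.6 for Ctrl 1 and -29.2 to -24.9 for the others.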

How the data were processed

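RNA levels were measured by sequencing in 9 HC11 libraries, and 1 table of raw read counts per gene was deposited by the authors with a column per library. The values are whole numbers with totals of 14549787 to 17228929. Bowtie 0.12.2 and build mm8 are named per the submitters' processing notes. Coordinates are nevertheless given as GRCm38, because 53585 of 54495 gene IDs shared with GENCODE mouse release 21 (98.33%) had the same start and end there. Sources used here do not state the counter, how strand was treated or whether rows were filtered. Gene length, also a column of the table, entered no test.

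The members of the comparison and the 32 gene lists were chosen with earlier results of these data known. The mitochondrial share was computed over all counts of a library. In R 4.3.3, edgeR 4.0.16 was run with TMM scaling, its default low-count filter (14471 of 28724 genes with a count were kept) and a fit of light group plus side over all 9 libraries (5 residual degrees of freedom), with Benjamini-Hochberg adjustment at 0.05 and two-sided tests. High-share against low-share was described only. The interaction of side and light group, and EpPT1 and EpPT2 against Ctrl, were tested. Each SE is the fitted log2 difference divided by the root of its F statistic. The scripts were tested on simulated counts.

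Named genes were the 10 largest differences in each direction among genes apart and averaging at least 5 CPM (without mitochondrial, predicted and unnamed genes and pseudogenes), up to 4 members of each list with the largest differences at that level, 7 marker genes, and the 13 protein-coding and 2 ribosomal RNA genes of the mitochondrial genome. Other list members are given with their differences, and a list of branched-chain amino acid breakdown was added after values were seen. For 3 list symbols the table's older names were matched through RefSeq synonyms. Promoter windows came from RefSeq on GRCm38.p6, and where a gene had several the one nearest to the table's gene start was taken. Alternatives were DESeq2 1.42.0 size factors, DESeq2, all genes with a count, a filter of 5 CPM in 3 libraries, mitochondrial genes removed before scaling, a spline on GC content removed (5 degrees of freedom), no light group term, a 1.5-fold limit, the replicate number as a block and each library left out. Added after seeing the data were the fit without side and a fit to the 5 libraries with positive GC slope.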

Additional observations from a re-analysis of the deposited data

Results flagged for a closer look

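For the genes and shares whose values are given by library, each side was searched for a library far from the others. Chance alone would flag about 1 in 20 groups if the libraries of a side were equally alike. Of 142 groups looked at, 15 held such a library, and in 9 of them it was Ctrl 3.

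Ctrl 3 stood above the other high-share libraries for 3 genes of protein folding in the endoplasmic reticulum: Hspa5 at 4223 CPM against 1523 to 1592, Dnajb9 at 239.4 CPM against 61.2 to 69.7 and Xbp1 at 260.7 CPM against 194 to 203. It stood below them for Syvn1 at 84.54 CPM against 142 to 149, Mcm5 at 41.29 CPM against 62.8 to 64.1, Fads2 at 16.52 CPM against 29.7 to 33.3, Mfge8 at 320.7 CPM against 704 to 801, Cldn3 at 213.8 CPM against 562 to 617 and Cldn4 at 30.78 CPM against 81.3 to 87.7.

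EpPT2 3 was below the other high-share libraries for Ppp1r15a, at 164.8 CPM against 209 to 217, and above them for Sult1c2, a sulfotransferase gene, at 12.42 CPM against 9.90 to 9.99. On the low-share side Ctrl 1 was above the others for Hif1a, at 390.8 CPM against 216 to 256, and below them for Klf2, at 51.8 CPM against 104 to 138. Ctrl 2 was below the others for Ctgf, at 259.5 CPM against 657 to 692, and for Nudt19, at 15.61 CPM against 23.7 to 25.8.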

How the results depend on the processing

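No gene named as apart changed sign under the alternatives tried. Leaving out a library or the light group term could not change it, given how these genes were chosen. Atf3, Bnip3l, Canx, Cd14, E2f1, Egln3, Krt8, Krt18, Ldha, Lpl, Mxi1, Mylk, Nr4a1, Nr4a2, Srebf2, Xdh, mt-Co2 and mt-Cytb, which were not apart, did change sign under at least 1. So did the medians of the lists of hypoxia factors, ATF4 response, immune markers, interferon and p53 targets, mitochondrial biogenesis and mitophagy. Of the recalculated single-gene differences 3169 moved by less than their SE and 320 by more. The settings were uneven in this. Of 195 genes, 95 moved by more with the replicate number as a block and 70 in the 5 libraries of positive GC slope. With the GC trend removed 52 did and without Ctrl 3 48 did, against 0 with DESeq2. Genes apart numbered 2285, and 1368 (841 higher and 527 lower) with a filter of 5 CPM in 3 libraries, 4067 (2000 of them lower) at a limit of 1.5-fold, 3410 (2122 higher) in the 5 libraries of positive GC slope, and 2229 with the GC trend removed. With 1 library left out they numbered 2305 to 2686, with 1432 to 1632 higher and 873 to 1079 lower. With fewer libraries the sides overlap less easily, so counts from fits to fewer libraries do not measure how stable the calls are. The interaction called 4 genes by DESeq2, 22 without a filter and 0 to 0 with a library left out; it could not be fitted without Ctrl 3, EpPT1 3 or EpPT2 1. EpPT1 against Ctrl called 49 genes by DESeq2, 490 without a filter and 0 to 2528 with a library left out. EpPT2 against Ctrl called 769, 1379 and 0 to 2698. The 2528 and 2698 came without EpPT1 1 and the cause was not tested. The replicate numbers did not pair the libraries: same-numbered libraries correlated in their deviations at 0.218 to 0.79 for number 1, -0.738 to 0.113 for number 2 and 0.713 to 0.76 for number 3. All number 1 libraries are low-share and all number 3 libraries high-share, so number and side nearly coincide and the block leaves the number 2 libraries to compare the sides. With the replicate block 2061 genes were apart (1249 higher and 812 lower) and 0 genes passed the interaction or either light comparison. Depth of 14549787 counts or more limits genes at a few CPM.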

Other observations

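Genes for the breakdown of branched-chain amino acids were lower in the high-share libraries. This list was chosen after Bckdhb appeared among the largest differences, so its counts describe it. Of 21 tested, 18 were lower, 5 apart and lower and 0 apart and higher, with a median log2 difference of -0.64. Bckdhb, Dbt and Pccb, subunits of the keto acid dehydrogenase and of propionyl-CoA carboxylase, were at -2.26, -2.20 and -2.06, the cobalamin enzyme gene Mmab at -1.30 and Hibadh, of valine breakdown, at -1.03. Hibadh was below the 2-fold line without EpPT1 1, EpPT1 3 or EpPT2 1, at -0.99, -0.92 and -0.96.

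Nr4a1 and Nr4a2, called by DESeq2 in the interaction, were lowest in Ctrl 1 and Ctrl 2. Nr4a1 was at 13.3 CPM in each of these against 30.8 to 102.6 CPM in the other 7 libraries, and Nr4a2 at 1.3 and 1.5 CPM against 7.34 to 14.2. For both genes EpPT1 2, a low-share library, was the highest.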
